A study of Mus musculus with 6 samples.

Results

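The pentose phosphate pathway was followed through the 7 enzymes of its core, G6pdx, Pgls, Pgd, Rpia, Rpe, Tkt and Taldo1, which were taken from the table of 56691 genes by their gene symbols. Each symbol named 1 row, and all 7 passed the filter on low counts that left 12467 genes for testing. RNA sequencing covered 6 libraries of a wild-type mouse macrophage line, spelled RAW246.7 in the labels. All cells were pretreated with LPS (lipopolysaccharide, a bacterial trigger of macrophage activation) and then kept for 24 h on hydrogels, with 3 libraries from MSA-ZW gels and 3 from MSA-DA gels. The title of the series concerns macroporous gels that absorb protein to different extents, the fibrin networks on them and macrophage function, so the comparison asks how expression differed between the gels. Every library comes from the same line, and no label says that libraries of a gel came from separate cultures. The p-values therefore cover only how far these samples scatter, and that scatter may be technical.

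The pathway branches from glycolysis at glucose 6-phosphate. Its oxidative arm, made of G6pdx, Pgls and Pgd, yields NADPH, and its non-oxidative arm, made of Rpia, Rpe, Tkt and Taldo1, interconverts sugar phosphates and supplies ribose 5-phosphate for nucleotides. Macrophages use NADPH for the oxidative burst, for nitric oxide synthesis and for keeping glutathione and thioredoxin reduced. G6pdx, Pgd, Tkt and Taldo1 are known targets of NRF2, the transcription factor of the antioxidant response.

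Total counts were 14374912 to 18346615 on MSA-DA and 16347934 to 18193026 on MSA-ZW. Of 8 macrophage markers, 7 had a mean of at least 1 CPM (counts scaled to library size), and Mrc1 did not. Their summed level was 3913 to 3986 CPM on MSA-DA and 4544 to 4587 CPM on MSA-ZW, and the part of this gap in the results below was not tested. Summed markers of fibroblasts, T cells and epithelial cells stayed at or below 0.439 CPM in every library, those of neutrophils at 1.27 to 1.78 CPM and those of endothelial cells at 0.494 to 1.87 CPM. Dcn, Cd3d, Cd8a, S100a9, Mpo, Epcam and Krt18 had no count in any library.

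Transcripts of the pathway stood at nearly the same level on both gels. Pgd, the dehydrogenase that makes the second NADPH of the oxidative arm, was 1.05-fold lower on MSA-DA and passed the test, and the other 6 enzymes did not pass. Thus 1 of 7 members was called lower, or 14.3%, where 6.5% of all tested genes were called lower, 6.92% higher and 13.4% in either direction, so the count stands close to the background. Fitted log2 differences of the members ran from -0.096 to 0.056 with a median of -0.037, against a median of 0.00085 over all tested genes. Their median absolute log2 difference was 0.039, against 0.089 over all tested genes, which were not matched to the members in level. In the neighbouring lists described below this median ran from 0.044 for glycolysis to 0.155 for the NRF2 list. In bulk RNA, fewer cells with a transcript and less of it per cell cannot be told apart. Calls are from the edgeR quasi-likelihood test at a Benjamini-Hochberg adjusted p below 0.05 over all tested genes.

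**Figure D1:**
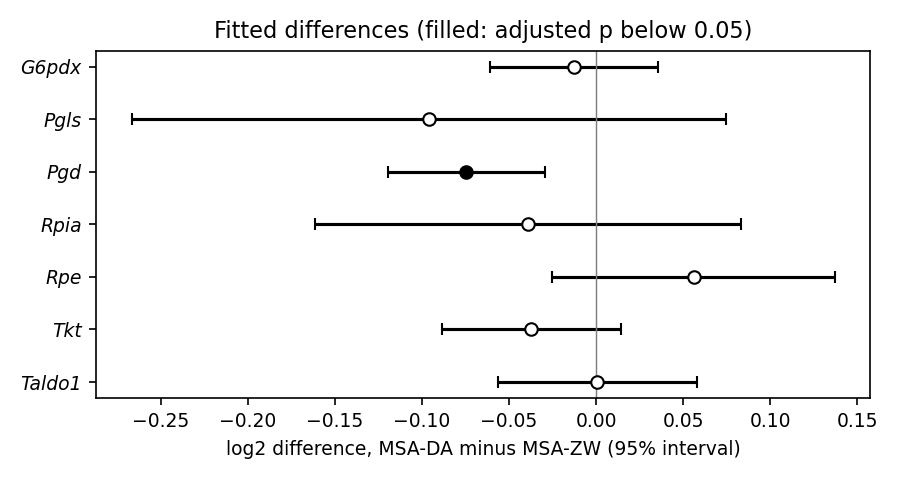
Fitted log2 difference of each enzyme, MSA-DA minus MSA-ZW, with its 95% interval from the edgeR fit to 3 libraries per gel. The interval of Pgd, from -0.12 to -0.029, lies below 0, and those of the other 6 enzymes include 0.

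Levels per transcript length, given as FPKM (counts scaled to exonic length and library total), spanned a wide range within the pathway. G6pdx, which commits glucose 6-phosphate to the pathway, was the most abundant at 215 ± 0.179 FPKM on MSA-DA and 218 ± 1.61 FPKM on MSA-ZW (SD, n = 3), above 98.6% of tested genes. Pgd and Taldo1 followed at about the same level, Tkt stood at 70.2 ± 1.21 and 72.4 ± 0.595 FPKM, and Rpe at 33.7 ± 1.57 and 32.7 ± 1.15 FPKM (SD, n = 3). Rpia and Pgls were far lower, at 7.24 ± 0.491 and 4.78 ± 0.193 FPKM on MSA-DA and 7.49 ± 0.345 and 5.12 ± 0.431 FPKM on MSA-ZW (SD, n = 3). Pgls lay above 42.9% of tested genes and Rpia above 53.4%. The order in FPKM was the same in all 6 libraries except for Pgd and Taldo1. Taldo1 was ahead of Pgd in 3 of 3 MSA-DA libraries and Pgd ahead of Taldo1 in 3 of 3 MSA-ZW libraries. On MSA-DA the pair lay at 146 to 149 FPKM for Pgd and 151 to 153 FPKM for Taldo1, and on MSA-ZW at 155 to 158 and 149 to 156 FPKM, where their ranges overlap. The remaining neighbours in the order were separated by more than their spread.

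**Figure D2:**
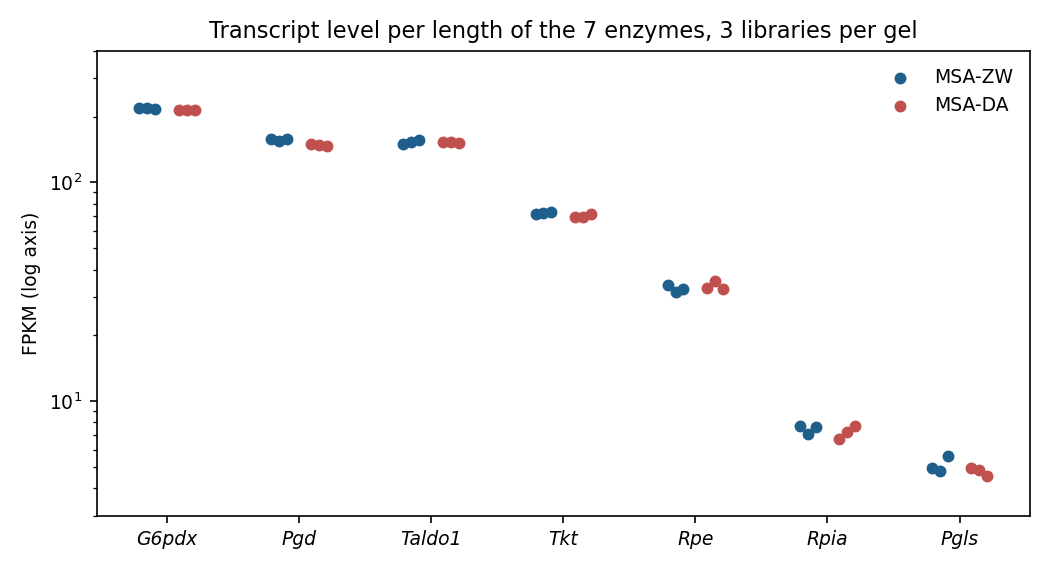
FPKM on a log axis for the 7 enzymes in order of FPKM, with 1 point per library and 3 libraries per gel. G6pdx stands at 215 to 219 FPKM and Pgls at 4.56 to 5.61 FPKM, and the points of the gels lie close together for every enzyme.

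In the oxidative arm, G6pdx (ENSMUSG00000031400, chromosome X, 73453089 to 73472800, minus strand, GRCm39) reduces NADP+ in the entry step. It had 664, 664 and 664 CPM on MSA-DA and 673, 673 and 664 CPM on MSA-ZW. MSA-ZW replicate 3 fell among the MSA-DA libraries on this scale, so the groups overlap, while in FPKM they do not, at 214.52 to 214.84 against 215.97 to 219.06. G6pdx differed by -0.013 (log2, standard error 0.024), and the 95% interval was -0.061 to 0.035, so that a fall beyond 1.04-fold or a rise beyond 1.02-fold lies outside it (edgeR adjusted p = 0.798). The span of G6pdx lies wholly within that of Ikbkg, the regulatory subunit of the IkB kinase, on the opposite strand. Ikbkg had 893 to 1152 counts per library against 9498 to 12140 for G6pdx and was higher on MSA-DA by 0.19 on the log2 scale (edgeR adjusted p = 0.00639). No source used here states whether counting used strand, so reads of the pair cannot be told apart with certainty.

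Pgls (ENSMUSG00000031807, chromosome 8, 72044820 to 72053736, plus strand), the lactonase of the middle step, had 18.7, 18.3 and 17.3 CPM on MSA-DA and 18.6, 18.1 and 21.1 CPM on MSA-ZW. MSA-ZW replicate 3 stood above the other 5 libraries, which were alike. The log2 difference of -0.096 had a 95% interval of -0.27 to 0.075 (edgeR adjusted p = 0.53), and without that library it was -0.024. Pgls has the highest GC content of the members, 61.1% over its transcripts, and with offsets for GC content and length its log2 difference was -0.028. With 267 to 385 counts per library, counting alone gives a coefficient of variation of 5.51% to 5.86%, so a difference as small as that of Pgd was not detectable in Pgls at this depth. Niban3 overlaps it on the same strand with 36 to 57 counts per library.

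Pgd (ENSMUSG00000028961, chromosome 4, 149234448 to 149251228, minus strand) decarboxylates 6-phosphogluconate to ribulose 5-phosphate. It had 968, 962 and 946 CPM on MSA-DA and 1014, 997 and 1018 CPM on MSA-ZW. Every MSA-DA library lay below every MSA-ZW library, and Pgd was the 1 member of 7 whose groups did not overlap in CPM, a separation that 13.7% of all tested genes showed in the lower direction. The means were 959 ± 11.2 and 1010 ± 11.0 CPM (SD, n = 3), which differ by -0.075 on the log2 scale with a standard error of 0.022 and a 95% interval of -0.12 to -0.029 (edgeR adjusted p = 0.0208). The change is small, and 43.2% of all tested genes, which were not matched to Pgd in level, had a smaller absolute log2 difference. The call was lost without MSA-DA replicate 2 (log2 difference -0.082, edgeR adjusted p = 0.0714) and without MSA-DA replicate 3 (-0.070, 0.103), and with offsets for GC content and length (-0.061, 0.0783). Without a filter on low counts it also missed the threshold (edgeR adjusted p = 0.0591), and over all 17 alternatives Pgd was lower each time and kept its call in 10, with adjusted p from 0.0043 to 0.165.

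**Figure D3:**
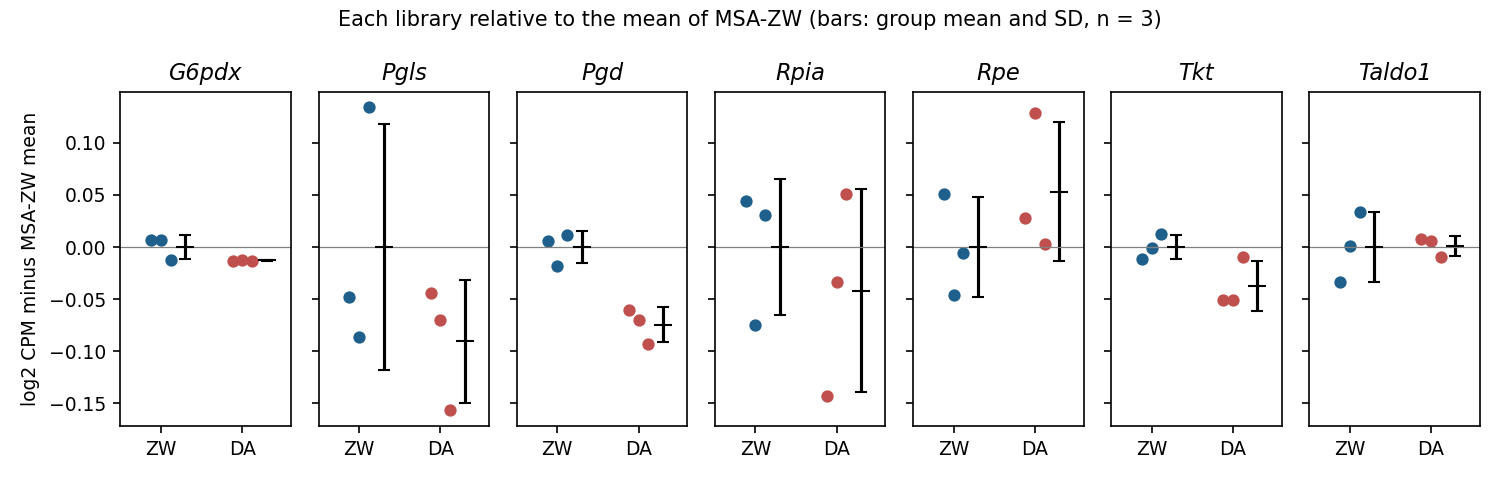
Log2 CPM of each library minus the mean of the MSA-ZW libraries, 1 panel per enzyme, with bars for the mean and SD of 3 libraries. Pgd is the enzyme whose MSA-DA points all lie below its MSA-ZW points, while Pgls, Rpia and Rpe show the widest scatter within a gel.

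The consecutive dehydrogenases were also set against each other within each library. The ratio of Pgd to G6pdx in FPKM was 0.697, 0.692 and 0.681 on MSA-DA and 0.720, 0.708 and 0.733 on MSA-ZW. The groups did not overlap, and the log2 ratio was lower by 0.062 on average, at -0.54 ± 0.017 against -0.47 ± 0.025 (SD, n = 3, exact two-sided permutation p = 0.1, which is the smallest that 3 against 3 allows, and 0.2 adjusted over the 2 ratios tested).

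In the non-oxidative arm, Rpia and Rpe draw on the same substrate, ribulose 5-phosphate. Rpia (ENSMUSG00000053604, chromosome 6, 70742704 to 70769216, minus strand), which isomerises it to ribose 5-phosphate, had 36.3, 39.1 and 41.5 CPM on MSA-DA and 41.3, 38.0 and 40.9 CPM on MSA-ZW. MSA-DA held both the lowest and the highest library, and the log2 difference of -0.039 had a 95% interval of -0.16 to 0.083 (edgeR adjusted p = 0.75). Rpe (ENSMUSG00000026005, chromosome 1, 66739990 to 66758964, plus strand), the epimerase that yields xylulose 5-phosphate, had 103, 111 and 102 CPM on MSA-DA and 105, 98.3 and 101 CPM on MSA-ZW. MSA-DA replicate 2 was the highest library, the other MSA-DA libraries lay inside the MSA-ZW range, and the log2 difference of 0.056 had a 95% interval of -0.025 to 0.14 (edgeR adjusted p = 0.415). Rpe has the lowest GC content of the members, 41.7% over its transcripts, and with GC and length offsets its log2 difference was -0.018. Kansl1l overlaps the end of Rpe on the opposite strand over 558 bases, with 294 to 397 counts per library.

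Tkt and Taldo1 shuttle carbon units between sugar phosphates and link the pathway back to glycolysis. Tkt (ENSMUSG00000021957, chromosome 14, 30270316 to 30296677, plus strand), the thiamine-dependent transketolase, had 513, 513 and 528 CPM on MSA-DA and 528, 531 and 537 CPM on MSA-ZW. MSA-DA replicate 3 reached the lowest MSA-ZW library, so the groups overlap in CPM, while in FPKM they do not, at 69.50 to 71.62 against 71.97 to 73.10. Its log2 difference was -0.037 with a 95% interval of -0.089 to 0.014 (edgeR adjusted p = 0.388), and it was 0.021 with GC and length offsets. Taldo1 (ENSMUSG00000025503, chromosome 7, 140972112 to 140982881, plus strand), the transaldolase, had 333, 333 and 329 CPM on MSA-DA and 323, 331 and 339 CPM on MSA-ZW. All 3 MSA-DA libraries lay inside the MSA-ZW range, and the log2 difference of 0.00067 had a 95% interval of -0.057 to 0.058, so that a change beyond 1.04-fold in either direction lies outside it (edgeR adjusted p = 0.991). The ratio of Taldo1 to Tkt in FPKM was 2.196, 2.194 and 2.109 on MSA-DA and 2.076, 2.112 and 2.140 on MSA-ZW, and the groups overlapped (exact two-sided permutation p = 0.3, and 0.3 adjusted over the 2 ratios).

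Summed over each arm, the oxidative enzymes gave 366 to 369 FPKM on MSA-DA and 378 to 382 FPKM on MSA-ZW. The non-oxidative enzymes gave 262 to 265 and 263 to 270 FPKM. The oxidative arm therefore made up 58.16% to 58.48% of the summed FPKM on MSA-DA and 58.47% to 59.21% on MSA-ZW, and the groups overlap. This share also rests on the deposited exonic lengths. Within the oxidative sum, the means on MSA-DA and MSA-ZW were 148 and 157 FPKM for Pgd and 215 and 218 FPKM for G6pdx. In FPKM, which lacks the TMM factor that scales the CPM for library composition, the groups of 3 members (G6pdx, Pgd and Tkt) did not overlap, where 14.7% of all tested genes were separated in the lower direction.

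Counts of 3 copies or relatives of the members were at or near 0. G6pd2, an intronless copy of G6pdx, had 0 to 2 counts per library, Tktl1 had 0 to 3 and Tktl2 had 0 in all. H6pd, which carries out the oxidative entry steps inside the endoplasmic reticulum, averaged 19.0 ± 1.76 CPM (SD, n = 3) on MSA-DA gels, compared with 21.8 ± 0.318 CPM on MSA-ZW gels, and did not pass (edgeR adjusted p = 0.0938). Among feeders and branches of the pathway, 1 of 12 tested genes (8.33%) fell and 11 did not pass, against 6.5% of all tested genes called lower. The neighbouring lists were not matched to all tested genes in level. The gene that fell was Pgm1, the phosphoglucomutase that links glycogen with glucose 6-phosphate, with 161 ± 5.40 CPM on MSA-DA (SD, n = 3) compared with 174 ± 2.85 on MSA-ZW (adjusted p = 0.0188 by edgeR). Its call was lost without MSA-DA replicate 3 (adjusted p = 0.137). The PRPP synthetases Prps1 and Prps2, which use ribose 5-phosphate, Shpk, which phosphorylates sedoheptulose, and Tigar, which diverts glucose carbon toward the pathway, did not pass (edgeR adjusted p of 0.524, 0.298, 0.993 and 0.96).

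Glycolysis, from which the pathway branches and to which Tkt and Taldo1 link it back, had 1 of 21 tested genes higher and 4 lower. These calls are 23.8% of the list, against 13.4% of all tested genes in either direction. Pfkp, a phosphofructokinase, rose 1.12-fold, from 254 ± 3.53 CPM on MSA-ZW to 285 ± 5.48 CPM on MSA-DA (SD, n = 3). The aldolase Aldoa was 1.07-fold lower and the enolase Eno1 was 1.06-fold lower. With GC and length offsets 1 gene of this list was called, and Aldoa and Eno1 did not pass (edgeR adjusted p of 0.334 and 0.452). Eno1 also lost its call without MSA-DA replicate 2 or 3 (0.0722 and 0.0831), and the list then held 2 calls in each case.

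Other enzymes that supply NADPH had 3 of 11 tested members higher (27.3%, against 6.92% of all tested genes), and 8 did not pass. Idh1, the cytosolic isocitrate dehydrogenase, was 1.16-fold higher, at 397, 409 and 410 CPM on MSA-DA and 353, 352 and 349 CPM on MSA-ZW (edgeR adjusted p = 7.92e-07). The groups of Idh1 are far apart relative to their spread, in the opposite direction to Pgd. The malic enzyme Me1 and the mitochondrial NAD kinase Nadk2 were 1.10-fold and 1.11-fold higher (edgeR adjusted p of 0.0169 and 0.0211), and neither passed with DESeq2 (adjusted p of 0.0657 and 0.094). Me1 lost its call without MSA-DA replicate 2 or 3 or MSA-ZW replicate 1 or 2 (edgeR adjusted p of 0.139, 0.1, 0.0571 and 0.16). Nadk2 lost its call without MSA-DA replicate 1 or 2 or MSA-ZW replicate 1 or 3 (0.064, 0.159, 0.0869 and 0.0625). With DESeq2, with GC and length offsets or without MSA-DA replicate 2, 1 gene of this list was called.

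Among enzymes that consume NADPH, 3 of 19 tested members were higher, 6 were lower and 10 did not pass. That is 47.4% called in either direction, against 13.4% of all tested genes. Haem oxygenase, Hmox1, was 1.41-fold higher and thioredoxin reductase, Txnrd1, rose 1.12-fold, from 597 ± 11.4 CPM on MSA-ZW to 667 ± 5.74 CPM on MSA-DA (SD, n = 3). Inducible nitric oxide synthase, Nos2, was 1.22-fold lower. Genes of nucleotide synthesis, which takes up the ribose phosphate of the pathway, had 2 of 17 tested members higher and 5 lower. This list thus had 41.2% called, against the same 13.4%. The adenylosuccinate synthase Adssl1 was 1.25-fold lower, the pyrimidine synthesis enzyme Cad was 1.10-fold lower and the purine salvage enzyme Hprt was 1.08-fold higher. With GC and length offsets 3 genes of this list were called, and Cad and Hprt were not among them (edgeR adjusted p of 0.285 and 0.58). Hprt lost its call without MSA-DA replicate 2 or 3 (0.0564 and 0.0618), and the list held 4, 4 and 2 calls without MSA-DA replicates 1, 2 and 3.

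Genes of the NRF2 pathway and its targets outside the pentose phosphate pathway, some of which are also in the NADPH lists, rose in 9 of 14 tested members and 5 did not pass. Thus 64.3% of this list were called higher, against 6.92% of all tested genes. The median log2 difference of the list was 0.15, against -0.037 for the 7 pentose phosphate enzymes. Gclm, a subunit of the enzyme that starts glutathione synthesis, was higher by 0.27 on the log2 scale, with 409 ± 3.85 compared with 340 ± 5.98 CPM (SD, n = 3), and Slc7a11, which imports cystine, was 1.24-fold higher. Nfe2l2, which encodes NRF2, rose 1.12-fold, from 133 ± 3.24 CPM on MSA-ZW to 149 ± 5.01 CPM on MSA-DA (SD, n = 3, adjusted p = 0.000858 by edgeR). The difference between these lists was not tested, and both come from the same fit.

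**Figure D4:**
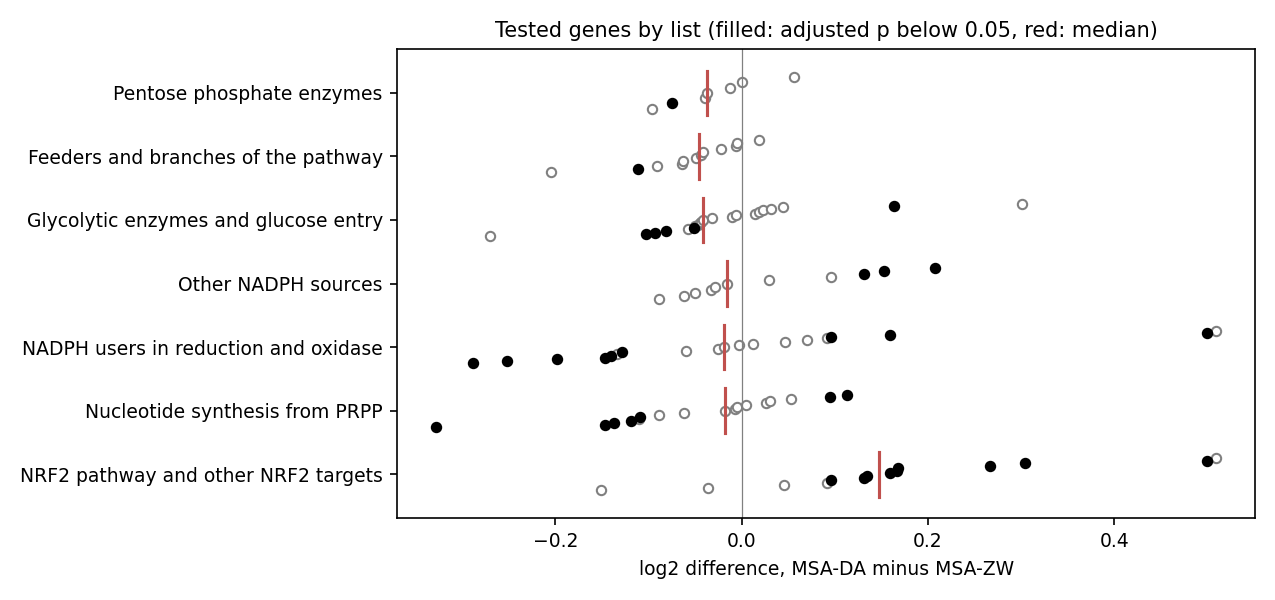
Log2 difference, MSA-DA minus MSA-ZW, of every tested gene in the pathway and in 6 neighbouring lists, with 1 point per gene and a red line at each median. The 7 pentose phosphate enzymes lie between -0.096 and 0.056, and the NRF2 list has its median at 0.15.

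Several members are counted as NRF2 targets. Windows around the annotated starts of the members were therefore searched for the core of the antioxidant response element, TGACNNNGC, on both strands. Windows of 300 bases around each annotated start were taken from RefSeq on GRCm38.p6, and all 7 members matched by symbol, with 8 windows. The letters stood in 2 of the 8 windows, 1 of G6pdx and 1 of Pgd, and in 12.4% of all 32851 windows. In the NRF2 list 11 of 14 genes matched (not Gclc, Gsr and Hmox1), and the letters stood in 6 of their 14 windows, those of Gclm, Me1, Nfe2l2, Prdx1, Srxn1 and Txnrd1. The E-box CACGTG stood in none of the members' windows (0 of 8) and in 7.15% of all windows. In the GENCODE annotation of the same build, the match of G6pdx, which lay before its RefSeq start, fell in a non-coding part of an exon of 1 G6pdx transcript. That of Pgd lay after the RefSeq start, within exons of 3 transcripts and coding sequence of 1 of them. The window of Pgd may therefore not be that of a promoter. Of the 2 matches in members' windows, only that of G6pdx therefore lay before its RefSeq start. The window of G6pdx is shown with that of Gclm, a target that rose, and capitals mark the match, which begins at base 194 for G6pdx and at base 117 for Gclm. A match is a description of letters and not evidence of binding.
G6pdx (chrX:74428831-74429130, - strand): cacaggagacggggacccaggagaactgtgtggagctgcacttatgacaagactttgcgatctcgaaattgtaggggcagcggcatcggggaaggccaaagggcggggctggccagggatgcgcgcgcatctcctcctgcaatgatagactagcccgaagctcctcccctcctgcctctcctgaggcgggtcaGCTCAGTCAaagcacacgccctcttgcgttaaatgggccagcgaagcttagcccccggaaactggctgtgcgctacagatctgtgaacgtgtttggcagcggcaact
Gclm (chr3:122245307-122245606, + strand): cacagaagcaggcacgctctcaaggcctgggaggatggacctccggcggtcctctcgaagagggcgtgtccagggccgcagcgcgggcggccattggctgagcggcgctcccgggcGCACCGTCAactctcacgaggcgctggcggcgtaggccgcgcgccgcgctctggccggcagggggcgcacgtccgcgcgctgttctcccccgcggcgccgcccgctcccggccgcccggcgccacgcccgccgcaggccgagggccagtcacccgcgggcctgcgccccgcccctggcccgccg

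The core letters read on the minus strand of the window in both genes. Gclm was higher on MSA-DA, and G6pdx did not pass, at 664 ± 0.238 against 670 ± 5.18 CPM (SD, n = 3).

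The pattern of Pgd over the 6 libraries was most like those of Rpl15, Sdc3 and Psmb10, with Pearson r of 0.998, 0.996 and 0.993 among 8342 genes averaging 10 CPM or more. That of G6pdx was most like those of Brca2, Rev3l and Luzp1, with r of 0.996, 0.993 and 0.991. However, G6pdx spanned only 664 to 673 CPM, and its spread within each gel was below that of counting alone. These correlations describe 6 points that share the 2 gels and their libraries, and 429 genes reached an r of at least 0.9 with Pgd and 141 with G6pdx. Among the members, r over the 6 libraries ran from -0.711 for Rpe and Tkt to 0.712 for Pgls and Pgd.

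**Figure D5:**
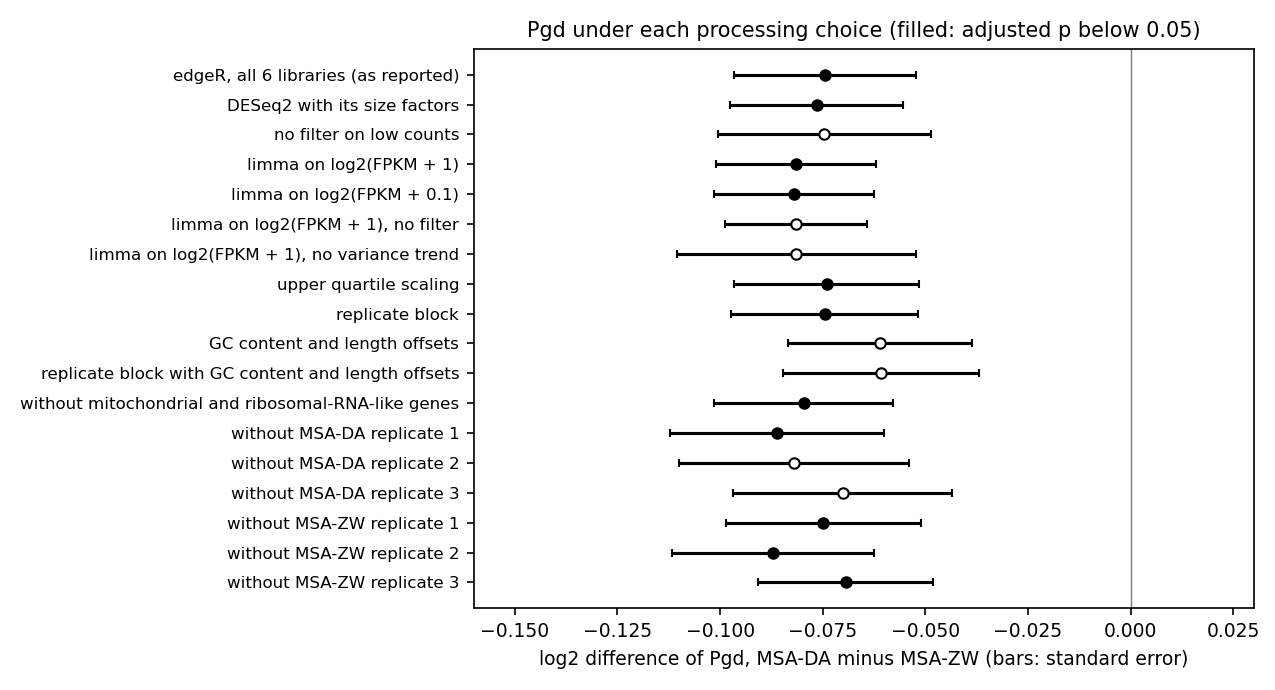
Log2 difference of Pgd, MSA-DA minus MSA-ZW, with its standard error in the reported fit and under 17 alternatives, filled where the adjusted p was below 0.05. All values lie between -0.087 and -0.061, and the reported fit and 10 alternatives are filled.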

How the data were processed

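Gene expression was measured by RNA sequencing in 6 libraries, grouped and numbered by their titles. HISAT2 2.2.1, cutadapt 1.9.1, bcl2fastq 2.20.0.422 and the build GRCm39 are named in the submitters' processing notes. No source used here gives the counting tool, strand setting, annotation release or RNA selection. The authors deposited raw counts and FPKM for each gene, per the file headers. The deposited FPKM equal count over exonic length and library total to within 0.011 for 100% of genes.

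Counts were tested with edgeR 4.0.16 in R 4.3.3 (TMM, filterByExpr, quasi-likelihood, group as the only term) over 12467 genes, with Benjamini-Hochberg adjustment. CPM are on TMM-scaled library sizes. Intervals are 95% and use the fit's degrees of freedom, and the common biological coefficient of variation was 3.04%. Alternatives used DESeq2 1.42.0, limma 3.58.1 with a variance trend on log2(FPKM + 1), a replicate block, left-out libraries and offsets for GC content and length. GC content came from GENCODE M21 transcripts, which covered 98.9% of tested genes.

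All 7 members were named, and in each neighbouring list the up to 3 called genes with the smallest p. Other genes named in the text, such as Nfe2l2, H6pd, Prps1, Prps2, Shpk and Tigar, were chosen after their values were seen. Members and lists were chosen with earlier results of these data known. The fits were tested on simulated data. 1 list of cell markers is not reported here.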

Additional observations from a re-analysis of the deposited data

How the results depend on the processing

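Pgd was lower in all 17 alternatives and kept its call in 10. It missed the threshold without a filter on low counts (log2 difference -0.075), in limma on FPKM without a filter or, chosen after seeing the data, without a variance trend (-0.081 in both), with GC content and length offsets (-0.061) and with these offsets together with the replicate block (-0.061). In each of these fits the count of enzymes called was 0, against 1. Leaving out each library gave -0.087 to -0.069 for Pgd and 0 to 1 enzymes called. The lowest adjusted p of the other 6 enzymes over all alternatives was 0.27, for Tkt in limma.

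Directions that turned belong to enzymes that did not pass. With GC content and length offsets, Rpe was -0.018 and Tkt 0.021, and with the replicate block added -0.019 and 0.021. Taldo1 was -0.0013 with DESeq2, -0.0064 in limma on log2(FPKM + 1) with and without a filter and without a variance trend, -0.0064 with a pseudocount of 0.1 and -0.0045 without mitochondrial and ribosomal-RNA-like genes. Leaving out each library gave -0.019 to 0.017 for Taldo1 and -0.090 to 0.0013 for Rpia. The cause was not tested.

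The 1673 genes called overall became 1507 in edgeR without a filter on low counts and 949 with DESeq2. Limma on log2(FPKM + 1) called 906, or 895 with a pseudocount of 0.1, 412 without a filter and 403 without a variance trend. Leaving out each library in edgeR gave 1001 to 1654. With GC content and length offsets the counts in the lists of feeders, glycolysis, other NADPH sources and nucleotide synthesis were 2, 1, 1 and 3, against 1, 5, 3 and 7, and DESeq2 gave 1 for other NADPH sources. In the same order, leaving out a library gave 0 to 1, 2 to 5, 1 to 2 and 2 to 7.

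Same-numbered libraries showed no shared deviation from the means of their gels, with correlations of 0.0109, 0.0167 and -0.0025. These values do not show whether such libraries shared a culture, which the labels do not state. With the replicate block 1594 genes passed, Pgd stayed at -0.074 (edgeR adjusted p = 0.0309) and the count of enzymes stayed at 1. Depth limits Pgls and Rpia, at 267 to 385 and 519 to 746 counts per library.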

Other observations

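All 7 enzymes carry the annotation to KEGG's pentose phosphate pathway in the deposited table, as do 43 other rows, a set taken up after the values had been seen. Of these rows 25 had at most 2 counts in every library, many of them predicted genes or pseudogenes, and 16 were tested, with 1 higher and 3 lower on MSA-DA. These calls are 25% of the rows tested, against 13.4% of all tested genes. Idnk, the gluconokinase that feeds 6-phosphogluconate to Pgd, averaged 15.5 ± 0.940 CPM (SD, n = 3) on MSA-DA gels, compared with 16.4 ± 0.651 CPM on MSA-ZW gels (adjusted p = 0.622 by edgeR). Prps1l3, a PRPP synthetase-like copy with similar paralogs, stood at 70.4 ± 1.16 and 69.5 ± 0.949 CPM (SD, n = 3, adjusted p = 0.85 by edgeR), a value that is uncertain because such copies can share reads.

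The 3 MSA-DA libraries agreed in G6pdx with a coefficient of variation of 0.0358%, where counting alone gives 0.967%, while the MSA-ZW libraries had 0.773% against 0.936%. In Rpia the values were 6.71% against 3.99% on MSA-DA and 4.47% against 3.83% on MSA-ZW.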
